A study of Mus musculus with 22 samples.

Results

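The genotype dependence of the response to imiquimod (IMQ) was measured in mouse dorsal root ganglia (DRG), the clusters of sensory neuron cell bodies beside the spinal cord, taken from levels T10 to L5. For each gene the quantity was an interaction: the IMQ change in ganglia labelled Postn knock out (KO) minus the IMQ change in wild-type (WT) ganglia, on the log2 scale. It used 10 of the 22 libraries of the series, which were all its ganglion libraries, and 17197 of the 55487 genes in the ganglion table passed the filter on low counts. The groups were KO mice given IMQ for 5 days (KO IMQ, 2 libraries), KO mice given vehicle for the same time (KO vehicle, 3), WT mice given IMQ (WT IMQ, 2) and WT mice given vehicle (WT vehicle, 3). The sources used here give no strain, age, sex, dose or skin site, and do not say which part of Postn is deleted or how many animals made a library. Nothing states that the libraries came from separate animals, so p-values measure the spread between these libraries, which may be technical.

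Imiquimod is an agonist of Toll-like receptor 7 (TLR7), an endosomal sensor of single-stranded RNA, and its repeated application to mouse skin is a widely used model of psoriasis-like inflammation. TLR7 signalling induces type I interferon and NF-kB target genes. Ganglia hold neurons wrapped by satellite glia, axons myelinated by Schwann cells, resident macrophages and connective tissue, and macrophages are known to accumulate in ganglia after peripheral injury or inflammation. Periostin, the product of Postn, is a secreted matricellular protein that binds integrins and is made by fibroblast-lineage cells.

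Postn stood at 7.43 and 4.38 CPM in KO IMQ against 3.89, 3.39 and 5.06 CPM in KO vehicle. In WT it stood at 49.7 and 43.3 CPM with IMQ against 20.9, 26.3 and 21.3 CPM with vehicle. CPM are counts scaled to a common library total after TMM. Every KO library lay below every WT library, and none was at 0. Postn was lower in KO than in WT both in IMQ ganglia (log2 difference -2.98, edgeR adjusted p = 0.0118) and in vehicle ganglia (-2.48, adjusted p = 0.011). The IMQ comparison of the genotypes called 1 gene (0.00581%) and the vehicle comparison 2 (0.0116%), all lower in KO. Its own interaction was -0.50 ± 0.33 (log2 ± SE), with an edgeR adjusted p of 0.999, and was -0.93 without KO IMQ 1 and -0.17 without KO IMQ 2.

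Library totals ran from 16666489 to 22317210 counts. The WT IMQ 2 library differed from the other 9 in sex-linked genes: Xist, the RNA that coats the inactive X chromosome, was at 0.176 CPM there against 196 to 236 CPM elsewhere, and 4 Y-linked genes summed to 139 CPM against at most 0.178 CPM. The KO vehicle 1 library held 557 CPM of erythroid markers and 371 CPM of neutrophil markers, against ranges of 62.8 to 206 and 35.9 to 184 CPM in the other libraries. KO vehicle 1 and WT vehicle 1 also had lower counts of long genes, with slopes of log2 CPM on log2 gene length of -0.215 and -0.172, against -0.0411 to 0.163 elsewhere. Pan-neuronal markers summed to between 17960 and 21367 CPM in every library. The part that these library differences play in the interactions below was not tested.

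No gene was called for the interaction at an edgeR adjusted p below 0.05 (0 of 17197, 0%). At an unadjusted p under 0.05 there were 364 genes (2.12%), of which 226 were positive (1.31%) and 138 negative (0.802%). About 860 would be expected if no gene differed and the p-values were evenly spread. The 364 lie below this, so these p-values were not evenly spread, and the count does not tell how many genes differ. The reason was not tested, and the count with a replicate block is given at the end. DESeq2 called 5 genes: Pdk4, Tmem267 and the placeholder gene Gm1821 with positive interactions, and Slc15a2 and Xlr3b with negative ones. limma-voom called 0. IMQ itself was called against vehicle for 190 genes in KO ganglia (1.1%; 187 or 1.09% higher and 3 or 0.0174% lower) and for 224 genes in WT ganglia (1.3%; 193 or 1.12% higher and 31 or 0.18% lower) in the same edgeR fit. Leaving out 1 library lowered these counts, to between 56 (without KO IMQ 1) and 165 in KO and to between 82 (without WT IMQ 2) and 160 in WT. They fell by more than 1.5 times without KO IMQ 1, KO IMQ 2 or KO vehicle 3 in KO, and without WT IMQ 1, WT IMQ 2, WT vehicle 2 or WT vehicle 3 in WT.

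Most of what IMQ raised, it raised in both genotypes. With all libraries in the fit, there were 135 genes called in both, which is 71.1% of the KO calls and 60.3% of the WT calls. Of these, 133 were higher with IMQ in both genotypes, 2 were lower in both, and 0 went opposite ways. The 133 shared rises had a median log2 change of 1.81 in KO and of 2.02 in WT ganglia, and a median interaction of -0.17 with 40 above 0 and 93 below 0. The 95% interval of the interaction lay within 1 log2 unit of 0 for 63 of the 133 and within 2 units for 123, and for the others it reached beyond that. Over the 279 genes called in either genotype the KO and WT changes correlated with a Pearson r of 0.86, given as a description across genes that share libraries and depth.

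**Figure D1:**
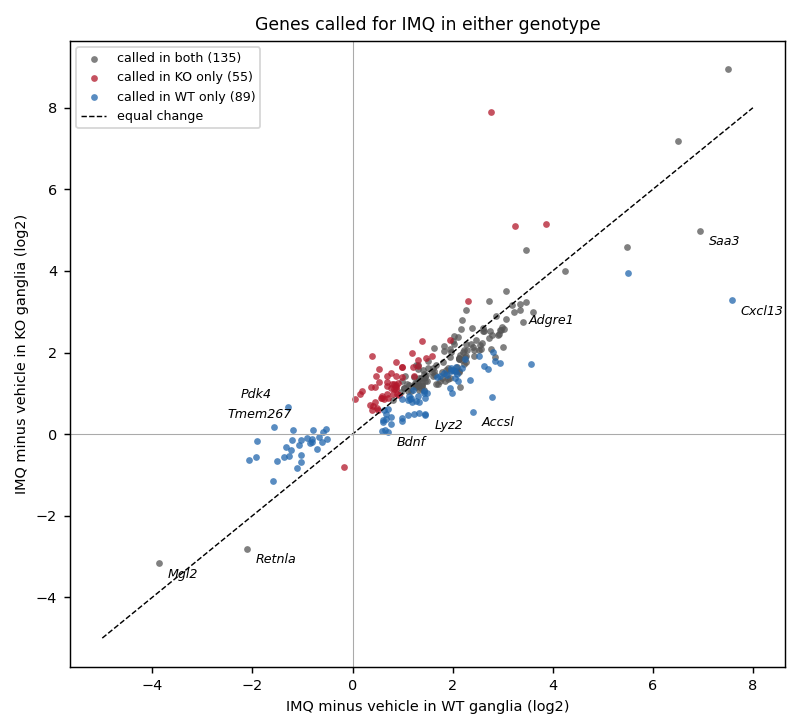
IMQ change in KO ganglia (vertical axis, log2) against IMQ change in WT ganglia (horizontal axis, log2) for the 279 genes called in either genotype, 1 point a gene. The 135 genes called in both lie along the dashed line of equal change, 54 of the 55 called in KO only were higher there and lie above it on the right, and among the 89 called in WT only a group that fell in WT lies near 0 in KO.

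Most genes with the smallest IMQ p were macrophage genes. Those named below rose in both genotypes, somewhat less in KO by the estimates, with no interaction called. Adgre1, the gene of the macrophage antigen F4/80, was at 61.9 and 53.9 CPM in KO IMQ against 5.77, 6.83 and 8.32 CPM in KO vehicle. In WT it was at 62.2 and 64.4 CPM with IMQ against 6.33, 6.92 and 5.46 CPM with vehicle. The IMQ libraries lay far above the vehicle libraries in both genotypes, by 3.05 in KO and 3.34 in WT on the log2 scale (edgeR adjusted p = 3.72e-05 and 2.56e-05), and the interaction was -0.29 ± 0.23 with a 95% interval of -0.80 to 0.21. Clec4a3, a myeloid C-type lectin, rose by 3.19 in KO and 3.34 in WT, with an interaction of -0.15 ± 0.25. Pld4, an endolysosomal nuclease, rose by 2.52 in KO and 2.62 in WT, with an interaction of -0.10 ± 0.19. Mpeg1 and Ctss, a pore-forming protein and a lysosomal protease of macrophages, had interactions of -0.27 ± 0.23 and -0.37 ± 0.25. Leaving out 1 library moved these 5 small interactions by more than 1.5 times, within -0.55 to 0.02 in all. In whole ganglia, more cells of a type and more RNA per cell cannot be told apart.

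Over the 22 macrophage markers, 17 were called higher with IMQ in KO ganglia and 21 in WT ganglia, with median changes of 1.78 in KO and 2.19 in WT. Of all genes tested, 1.09% were called higher in KO and 1.12% in WT. Their interactions had a median of -0.42 and were below 0 for 20 of 22, against a median of -0.0044 with 8714 of 17197 below 0 over all genes tested, and none was called. The median deviation of these markers from their mean over libraries was 1.23 and 0.89 in KO IMQ, -0.48, -1.24 and -0.53 in KO vehicle, 1.40 and 1.35 in WT IMQ, and -0.69, -0.82 and -1.03 in WT vehicle. Both WT IMQ libraries thus lay above both KO IMQ libraries, while the vehicle groups overlapped. The median stayed between -0.62 and -0.28 (without KO vehicle 1) under every alternative tried, and was -0.44 without WT IMQ 2.

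Lyz2, which encodes lysozyme of macrophages and neutrophils, carried the smallest interaction p of the list. It was at 145 and 152 CPM in KO IMQ against 136, 74.9 and 106 CPM in KO vehicle. WT ganglia had 239 and 223 CPM with IMQ against 94.4, 83.8 and 74.6 CPM with vehicle. The KO IMQ libraries stood just above KO vehicle 1, and the WT IMQ libraries stood well above all others. The WT change of 1.46 was called (edgeR adjusted p = 0.00802) and the KO change of 0.49 was not (adjusted p = 0.578). The interaction was -0.97 ± 0.30 (unadjusted p = 0.00927, edgeR adjusted p = 0.999), or -0.74 without KO vehicle 1, the library with the most neutrophil markers. Fcgr1, the high-affinity IgG receptor, rose in both genotypes, by 1.16 in KO and 2.14 in WT (edgeR adjusted p = 0.0453 and 0.00126), with an interaction of -0.98 ± 0.32. The Fcgr1 call in KO was lost whichever KO library was left out, at adjusted p of 0.0523 to 0.518. The WT call of Lyz2 was lost without WT IMQ 1, WT IMQ 2 or WT vehicle 3 (adjusted p 0.0519 to 0.076).

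Markers of resident and alternatively activated macrophages did not move as a block. Of the 16 tested of 20, 4 were called higher and 2 lower in KO, and 2 higher and 2 lower in WT, and the median interaction was -0.06 with 7 of 16 above 0. The shares over all genes tested were 1.09% higher and 0.0174% lower in KO, and 1.12% higher and 0.18% lower in WT. Cd163, the haptoglobin-haemoglobin scavenger receptor, was at 26.1 and 23.4 CPM in KO IMQ against 10.3, 13.3 and 11.9 CPM in KO vehicle. In WT it was at 16.5 and 12.8 CPM with IMQ against 12.4, 13.1 and 13.1 CPM with vehicle. KO IMQ stood above every other library, and WT IMQ overlapped WT vehicle. Cd163 rose in KO by 1.06 (edgeR adjusted p = 0.00841; 0.116 without KO IMQ 1), its WT change was 0.19, and its interaction was 0.87 ± 0.21 (unadjusted p = 0.00243, adjusted p = 0.999). The scavenger receptor Stab1 rose in both genotypes, by 1.45 in KO and 1.47 in WT, with an interaction of -0.02 ± 0.21. Mgl2, a galactose-type lectin, fell in both: it was at 1.45 and 0.77 CPM in KO IMQ against 8.87 to 11.7 CPM in KO vehicle. The WT levels were 0.457 and 0.879 CPM with IMQ against 8.76 to 10.6 CPM with vehicle. Retnla, a product of alternatively activated macrophages, also fell in both, by 2.81 in KO and by 2.11 in WT on the log2 scale (edgeR adjusted p = 0.0126 and 0.0377). Mgl2 and Retnla were the 2 genes called lower in both genotypes, and Retnla and Stab1 are named here after their values were seen.

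By the estimates almost all interferon-stimulated genes rose in each genotype, 40 of 41 in KO and 41 of 41 in WT. Over all 17197 genes tested, 8450 and 8281 rose. At an unadjusted edgeR p under 0.05, 31 of the 41 were higher in KO and 29 in WT, against 901 and 762 of all genes. Of 41 tested, 14 were called higher in KO, where 1.09% of all genes were, and 5 in WT, where 1.12% were. The median IMQ change was 0.79 in KO and 0.58 in WT, and the median interaction was 0.21 with 32 of 41 above 0 and none called. The median deviation was 0.59 and 0.52 in KO IMQ, -0.25, -0.44 and -0.14 in KO vehicle, 0.23 and 0.37 in WT IMQ, and -0.25, -0.20 and -0.37 in WT vehicle. The KO IMQ libraries were highest and the WT IMQ libraries next, with the vehicle groups overlapping at the bottom. The median interaction stayed between 0.12 (without WT IMQ 1) and 0.28 under every alternative tried. The number of calls per genotype is no test of a difference between genotypes.

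Rsad2 and Ifit1 are set side by side, and their promoters are printed because type I interferon acts through a known promoter element, the interferon-stimulated response element. Rsad2 encodes viperin, an antiviral radical SAM enzyme, and had the smallest interaction p of the list, while Ifit1, an antiviral RNA-binding protein that was chosen after its values were seen, was called in both genotypes. The windows run from 250 bases before to 50 after the RefSeq start (GRCm38.p6), Rsad2 at chr12:26456403-26456702 on the minus strand and Ifit1 at chr19:34640639-34640938 on the plus strand. Capitals mark GAAA, any 2 bases and GAAA again, or the reverse complement of this run.
Rsad2: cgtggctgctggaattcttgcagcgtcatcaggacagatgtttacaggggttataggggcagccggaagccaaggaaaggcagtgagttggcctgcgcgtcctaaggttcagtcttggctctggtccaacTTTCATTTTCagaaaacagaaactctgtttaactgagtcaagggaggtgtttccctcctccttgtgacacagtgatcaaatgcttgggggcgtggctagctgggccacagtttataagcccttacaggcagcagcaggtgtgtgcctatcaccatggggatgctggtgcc
Ifit1: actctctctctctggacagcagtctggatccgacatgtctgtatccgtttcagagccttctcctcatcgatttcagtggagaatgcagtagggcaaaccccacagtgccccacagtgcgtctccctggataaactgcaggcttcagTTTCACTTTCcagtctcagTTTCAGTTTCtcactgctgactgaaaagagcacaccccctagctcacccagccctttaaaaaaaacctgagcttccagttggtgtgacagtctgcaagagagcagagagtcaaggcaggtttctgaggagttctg
The Rsad2 window holds 1 match and the Ifit1 window 2 matches, the first of them 120 and 104 bases before the start. On both strands, the motif was found in 17 of the 30 tested members that have a window (56.7%), or 18 of their 37 windows (48.6%), and in 3.44% of all 32851 windows. A match is a description of the letters in the window and not evidence of binding.

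Rsad2 was at 11.95 and 12.9 CPM in KO IMQ against 7.17, 5.70 and 5.90 CPM in KO vehicle. Its levels in WT ganglia were 6.66 and 7.91 CPM with IMQ against 5.21, 7.45 and 6.96 CPM with vehicle. Only the KO IMQ libraries stood above the rest, and WT IMQ overlapped WT vehicle. Rsad2 rose in KO by 0.99 (edgeR adjusted p = 0.0342), its WT change was 0.15, and its interaction was 0.84 ± 0.26 (unadjusted p = 0.00984, adjusted p = 0.999). The KO call was lost without KO IMQ 1, KO IMQ 2, KO vehicle 2 or KO vehicle 3 (adjusted p 0.0928 to 0.244). Ifit1 averaged 76.8 ± 7.4 CPM in KO IMQ (SD, n = 2) against 22.3 ± 4.5 CPM in KO vehicle (n = 3), and 63.5 ± 2.9 CPM in WT IMQ (n = 2) against 22.2 ± 3.0 CPM in WT vehicle (n = 3). It rose by 1.79 in KO and 1.51 in WT, with an interaction of 0.27 ± 0.25. Oas2, a sensor of double-stranded RNA, rose in KO by 1.76 (edgeR adjusted p = 0.00559; 0.0842 without KO IMQ 1) and its WT change was 0.87 (adjusted p = 0.173), with an interaction of 0.89 ± 0.33. The transcription factor Irf7 rose in both, by 1.70 in KO and 1.67 in WT, with an interaction of 0.03 ± 0.35.

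The Toll-like receptor list, which holds receptors, adaptors and the transcription factor Irf7, had a median interaction of 0.03 (-0.16 without KO IMQ 1 and 0.39 without WT IMQ 2). Of its genes, 8 of 17 were called higher in KO and 5 in WT. Over all genes tested, 1.09% were called higher in KO and 1.12% in WT. Tlr7, the receptor of imiquimod, was at 5.16 and 5.62 CPM in KO IMQ against 1.82, 1.90 and 2.32 CPM in KO vehicle. In WT it was at 5.69 and 4.81 CPM with IMQ against 3.19, 3.30 and 2.202 CPM with vehicle. The IMQ libraries of both genotypes overlapped, above all vehicle libraries. The Tlr7 change was 1.42 in KO (edgeR adjusted p = 0.0126; 0.106 without KO IMQ 2 and 0.0948 without KO IMQ 1) and 0.86 in WT (adjusted p = 0.124), and the interaction was 0.56 ± 0.30.

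Saa3 had the highest IMQ change in WT of the acute-phase list, and Cxcl13 that of the chemokine, cytokine and NF-kB list. Saa3, an acute-phase serum amyloid, was at 1.97 and 2.84 CPM in KO IMQ against 0.121, 0.0452 and 0.0527 CPM in KO vehicle. WT ganglia had 8.48 and 10.9 CPM with IMQ against 0.118, 0.105 and 0 CPM with vehicle. It rose in both genotypes, by 4.98 in KO and 6.95 in WT (edgeR adjusted p = 0.00136 and 0.000124), and every WT IMQ library lay above every KO IMQ library. The interaction of -1.97 had an SE of 1.03 and an interval of -4.27 to 0.33. Cxcl13, the B cell chemoattractant, was at 3.71 and 3.55 CPM in KO IMQ against 0.121, 0.0905 and 0.896 CPM in KO vehicle. The WT levels were 7.37 and 1.99 CPM with IMQ against 0.0592, 0 and 0 CPM with vehicle. The KO IMQ values lay between the 2 WT IMQ values, and the interaction of -4.29 ± 1.78 (-2.53 without KO vehicle 3) rests on WT vehicle libraries at or near 0, where a fitted fold change depends on the prior count. The chemokine, cytokine and NF-kB list had a median interaction of -0.28 over 21 genes, which was -0.44 without KO IMQ 1 and 0.31 without WT IMQ 2, and the acute-phase list one of -0.01 over 19 (-0.19 if WT IMQ 1 was left out and 0.16 if WT IMQ 2 was).

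The single smallest interaction p belonged to Pdk4, pyruvate dehydrogenase kinase 4, which restrains glucose oxidation and is induced by fasting and glucocorticoids. It was at 11.6 and 11.4 CPM in KO IMQ against 7.17, 6.65 and 8.06 CPM in KO vehicle. Its levels in WT ganglia were 8.33 and 8.38 CPM with IMQ against 23.4, 21.2 and 16.7 CPM with vehicle. WT vehicle stood above every other library, and the KO IMQ libraries stood above KO vehicle while the WT IMQ libraries stood below WT vehicle. Pdk4 fell with IMQ in WT by 1.29 (edgeR adjusted p = 0.00396; 0.0652 without WT IMQ 2 and 0.0651 without WT IMQ 1), and its KO change was 0.66 (adjusted p = 0.14). The interaction was 1.95 ± 0.23, with a 95% interval of 1.43 to 2.46, an unadjusted p of 9.03e-06 and an edgeR adjusted p of 0.155. It ran from 1.84 to 2.08 over the alternatives tried, and passed the threshold under DESeq2 (adjusted p = 2.49e-07), with no filter on low counts (edgeR, 0.000765) and with a gene-length offset (edgeR, 0.0292). Pdk4 was, beside Postn, the other gene called between genotypes in vehicle ganglia (log2 difference -1.49, edgeR adjusted p = 0.0147). That comparison called no gene without KO vehicle 1, KO vehicle 2, KO vehicle 3 or WT vehicle 2.

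A high WT vehicle group recurred among the positive interactions. Of the 10 positive genes with the smallest p, WT vehicle was the group farthest from the other 3 for 7: Pdk4, Tmem267, Il16, F3, Slc9a3, Prrg3 and Angpt2, with WT vehicle above in each. Over all 226 genes with a positive interaction at p under 0.05, WT vehicle stood above for 82 (36.3%), WT IMQ below for 66 (29.2%), KO vehicle below for 40 (17.7%) and KO IMQ above for 38 (16.8%). These groups were read from the values that gave the p, so the counts describe where the interaction lay and test nothing.

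Tmem267, a predicted membrane protein, was at 14.1 and 10.1 CPM in KO IMQ, at 9.84, 9.09 and 13.2 CPM in KO vehicle, then 10.2 and 7.27 CPM in WT IMQ and 27.4, 21.5 and 28.8 CPM in WT vehicle. Every WT vehicle library lay above every other library, and the remaining groups overlapped. Tmem267 fell with IMQ in WT by 1.57 (edgeR adjusted p = 0.012), its KO change was 0.18, and its interaction was 1.75 ± 0.33. Its WT call was lost without WT IMQ 1, WT IMQ 2 or WT vehicle 3 (adjusted p 0.0512 to 0.172).

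Il16, which encodes a cytokine that binds CD4, was at 31.8 and 30.5 CPM in KO IMQ, at 25.3, 32.5 and 30.0 CPM in KO vehicle, then 25.1 and 27.4 CPM in WT IMQ and 51.0, 43.5 and 41.8 CPM in WT vehicle. F3, tissue factor of the clotting cascade, was likewise highest in WT vehicle, with 27.3 to 32.1 CPM in the KO and WT IMQ libraries against 46.7, 46.4 and 41.3 CPM in WT vehicle. Il16 fell in WT by 0.79 and F3 by 0.53 (edgeR adjusted p = 0.0235 and 0.0429), and their interactions were 0.88 ± 0.19 and 0.66 ± 0.15. Slc9a3, a sodium-proton exchanger, and Prrg3, a vitamin K-dependent membrane protein, also fell in WT, by 1.18 and 1.23 (edgeR adjusted p = 0.0286 and 0.00329), with interactions of 1.27 ± 0.30 and 0.84 ± 0.21. The WT calls of Il16, F3 and Slc9a3 were lost with any of the 5 WT libraries left out (adjusted p 0.0582 to 0.342), and that of Prrg3 without WT IMQ 1 (0.0669). Angpt2, a vascular growth factor, and Cpeb1os1, an antisense RNA whose reads cannot be told from those of Cpeb1 if counting ignored strand, had interactions of 0.85 ± 0.21 and 1.81 ± 0.44 with no call in either genotype.

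Cyp26b1, which degrades retinoic acid, was beside Cd163 the other of the top positive genes whose rise with IMQ was called in KO. It was at 15.8 and 14.5 CPM in KO IMQ against 5.65, 6.47 and 4.79 CPM in KO vehicle. In WT it was at 10.8 and 12.3 CPM with IMQ against 7.45, 9.80 and 7.86 CPM with vehicle. IMQ libraries lay above vehicle libraries in both genotypes, more widely in KO. It rose in KO by 1.42 (edgeR adjusted p = 0.00364; 0.0572 without KO IMQ 1), its WT change was 0.46 (adjusted p = 0.464), and its interaction was 0.96 ± 0.24.

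**Figure D2:**
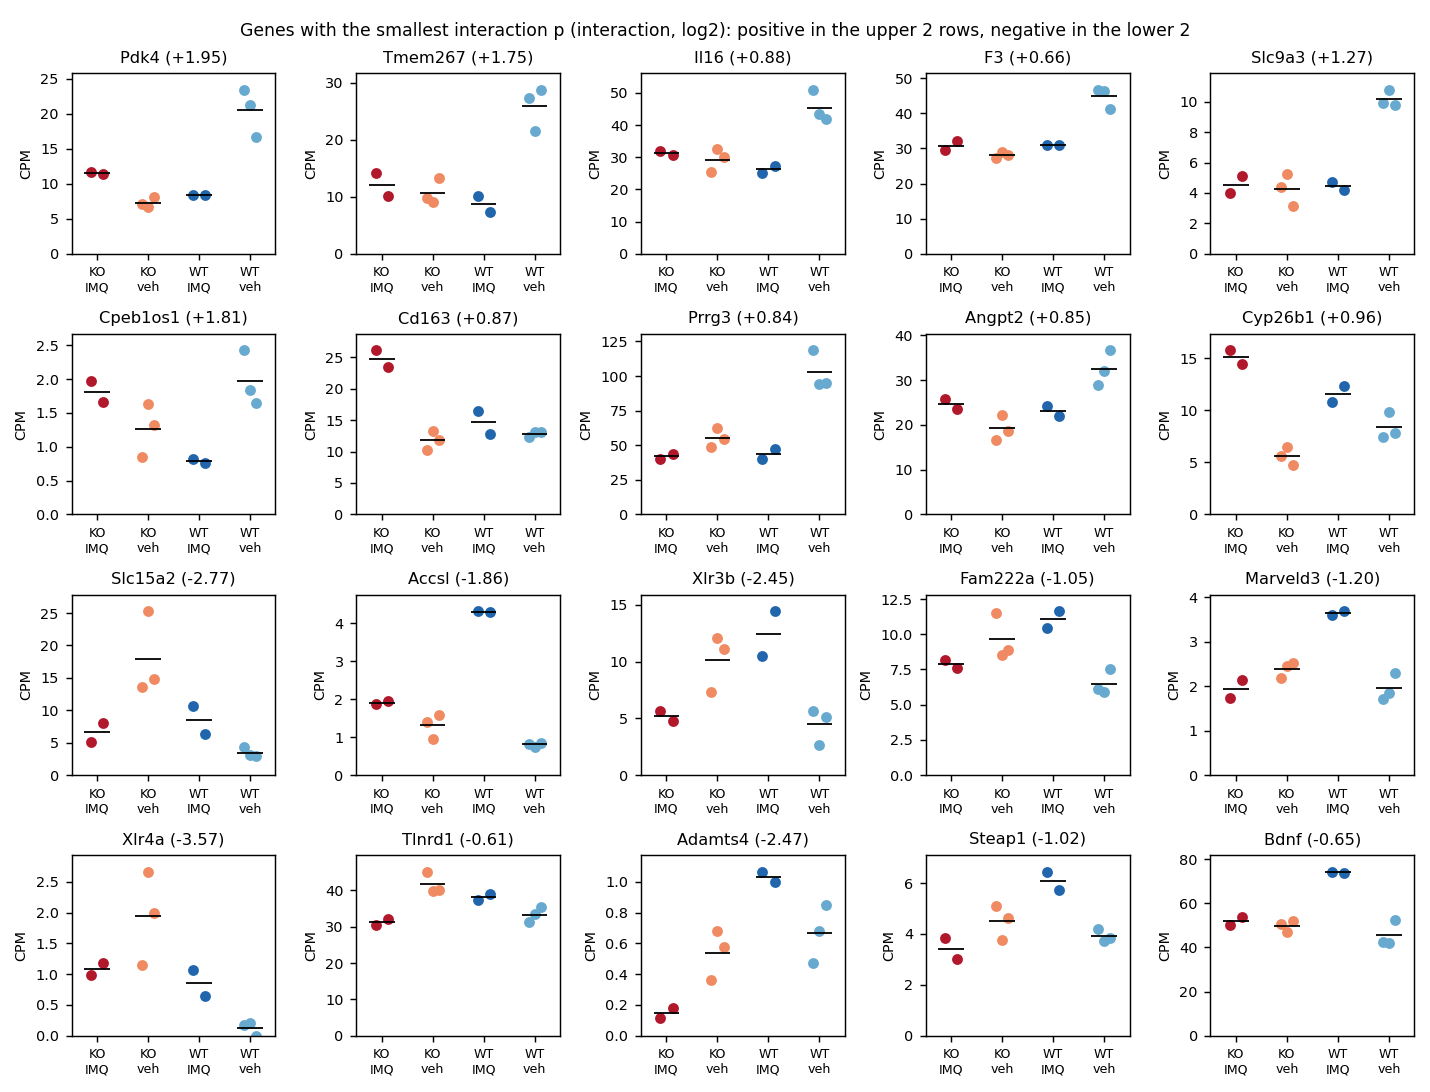
CPM in each library (points) with group means (lines) for the 10 positive genes (upper 2 rows) and 10 negative genes (lower 2 rows) with the smallest interaction p, each with its interaction in log2. In Pdk4, Tmem267, Il16, F3, Slc9a3, Prrg3 and Angpt2 the WT vehicle libraries are the highest, while in Accsl, Xlr3b, Marveld3, Steap1 and Bdnf the WT IMQ mean is the highest.

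Among the 10 negative genes with the smallest p, WT IMQ was farthest from the other groups, and above them, for 5: Accsl, Xlr3b, Marveld3, Steap1 and Bdnf. Over all 138 negative genes at p under 0.05, KO IMQ stood below for 59 (42.8%) and WT IMQ above for 37 (26.8%). Bdnf, brain-derived neurotrophic factor, is made by sensory neurons and modulates pain transmission in the spinal cord. It was at 50.01 and 53.7 CPM in KO IMQ against 50.7, 47.0 and 52.1 CPM in KO vehicle. WT ganglia had 74.4 and 73.8 CPM with IMQ against 42.4, 41.9 and 52.4 CPM with vehicle. The WT IMQ libraries lay above all others, and the KO IMQ libraries within or just above the vehicle range. Bdnf rose with IMQ in WT by 0.70 (edgeR adjusted p = 0.0193), its KO change was 0.06 (adjusted p = 0.869), and its interaction was -0.65 ± 0.17 (unadjusted p = 0.00362, adjusted p = 0.999), or -0.65 without WT IMQ 2. The WT call of Bdnf was lost without WT IMQ 1, WT IMQ 2, WT vehicle 1 or WT vehicle 2 (adjusted p 0.0559 to 0.173). The nerve injury and regeneration list that holds Bdnf had a median interaction of -0.20, with 15 of 19 below 0, 1 called in WT (Bdnf, higher) and 0 in KO. This median was -0.34 without KO vehicle 2, -0.09 without KO vehicle 1 and -0.04 with the gene-length offset. Of all genes tested, 1.3% were called in WT and 1.1% in KO, so 0 or 1 call in 19 genes says little about the list.

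Accsl, an ACC synthase-like gene, was at 1.86 and 1.95 CPM in KO IMQ against 1.40, 0.950 and 1.58 CPM in KO vehicle. The WT levels were 4.32 and 4.28 CPM with IMQ against 0.828, 0.734 and 0.851 CPM with vehicle. IMQ libraries lay above vehicle libraries in both genotypes, and farther in WT. It rose in WT by 2.41 (edgeR adjusted p = 0.000942) and kept this call with any WT library left out, while its KO change was 0.55 (adjusted p = 0.595) and its interaction was -1.86 ± 0.35. Slc15a2, a proton-coupled peptide transporter of glia, was at 5.16 and 7.99 CPM in KO IMQ against 13.5, 25.3 and 14.9 CPM in KO vehicle. Its levels in WT ganglia were 10.7 and 6.27 CPM with IMQ against 4.32, 3.04 and 2.90 CPM with vehicle. IMQ libraries were below vehicle in KO and above it in WT, and neither change was called (-1.45 and 1.32, edgeR adjusted p = 0.132 and 0.171). Its interaction was -2.77 ± 0.50 (unadjusted p = 0.000271, adjusted p = 0.999). Xlr3b and Xlr4a, X-linked lymphocyte-regulated genes of a family with near-identical copies between which reads can be split, had interactions of -2.45 ± 0.46 and -3.57 ± 0.87. Without WT IMQ 2, the library without Xist, these were -2.20 and -3.87. Adamts4, an aggrecan-cleaving protease, had an interaction of -2.47 ± 0.62 at levels of 0.116 to 1.07 CPM.

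Most glucocorticoid-responsive genes, of which Pdk4 is one, had a positive interaction. Glucocorticoids act through a nuclear receptor that induces the chaperone Fkbp5 and the regulators Tsc22d3, Klf9 and Per1. Of 20 such genes, 17 had an interaction above 0 and 8 had one at an unadjusted p under 0.05, all positive, with a median of 0.46 and none called. Over all genes tested, 8483 of 17197 were above 0 and 1.31% were positive at that p. Pdk4 is among the 8, and the list was chosen with earlier results of these data known. The median IMQ change was 0.08 in KO, with none called, and -0.40 in WT, where Pdk4 was called lower. Of all genes tested, 1.1% were called in KO, and 0.18% were called lower in WT. The median deviation was -0.14 and 0.05 in KO IMQ, -0.16, -0.23 and -0.15 in KO vehicle, -0.08 and -0.10 in WT IMQ, and 0.48, 0.25 and 0.27 in WT vehicle. WT vehicle lay above the other 3 groups. The KO IMQ and WT IMQ libraries overlapped, and the KO vehicle libraries lay below them, though only just below KO IMQ 1. Hif3a, a hypoxia-inducible factor subunit, was at 4.64 and 5.27 CPM in KO IMQ, 5.65, 5.11 and 3.37 CPM in KO vehicle, 6.96 and 4.45 CPM in WT IMQ, and 13.8, 11.2 and 10.5 CPM in WT vehicle, with an interaction of 1.12 ± 0.37. Mertk, a receptor for apoptotic cells, had one of 0.87 ± 0.24, and Fkbp5 one of 0.34 ± 0.15. The median stayed between 0.36 and 0.64 under every alternative. The letters AGAACA, a part of the glucocorticoid receptor's element, were found on either strand in 4 of the 28 promoter windows of these genes (14.3%), against 19% of all windows. These windows belong to 2 of the 18 members that have a window (11.1%), Sgk1 and Tsc22d3, against 21.3% of all genes. Most of them are alternative starts of Sgk1.

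Myelinating Schwann cell genes were likewise highest in WT vehicle. All 17 tested had an interaction above 0, with a median of 0.54 and none called, and 2 were at an unadjusted p under 0.05. Among all genes tested, 8483 of 17197 were above 0 and 1.31% were positive at that p. The median IMQ change was -0.29 in KO, with none called where 1.1% of all genes were. It was -0.85 in WT, with 1 called lower where 0.18% of all genes were. That gene was Drp2, which encodes a dystrophin-related protein of the Schwann cell membrane. It was at 236 and 243 CPM in KO IMQ against 324, 428 and 388 CPM in KO vehicle. In WT it was at 189 and 231 CPM with IMQ against 671, 605 and 515 CPM with vehicle. IMQ libraries lay below vehicle libraries in both genotypes, and the vehicle groups lay apart, with WT higher. Drp2 fell in WT by 1.51 (edgeR adjusted p = 0.00163) with the call kept when any WT library was left out, its KO change was -0.67 (adjusted p = 0.129), and its interaction was 0.84 ± 0.22. Mbp, myelin basic protein, had an interaction of 0.68 ± 0.32, and Egr2, the transcription factor of myelination, one of 1.20 ± 0.41.

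The summed level of the 17 myelin genes was 6486 and 5862 CPM in KO IMQ, 8663, 7167 and 7996 CPM in KO vehicle, 5861 and 8149 CPM in WT IMQ, and 16373, 10997 and 10638 CPM in WT vehicle. WT vehicle was highest, and WT vehicle 1 stood above the other WT vehicle libraries. The WT IMQ libraries differed: leaving out WT IMQ 1 made the list's median interaction 0.27, and leaving out WT IMQ 2 made it 0.84. Fibroblast and matrix genes had a median of 0.11 over 24 genes, 0.38 without WT IMQ 2 and -0.0029 without WT IMQ 1. Among them Ogn, osteoglycin, fell in WT by 0.80 (edgeR adjusted p = 0.0193), with a KO change of -0.18 and an interaction of 0.62 ± 0.19, and lost this call without WT IMQ 1, WT IMQ 2 or WT vehicle 2 (adjusted p 0.0781 to 0.255). Receptors of periostin and related matricellular genes had a median of 0.15, with 17 of 18 above 0 and none called, and leaving out WT IMQ 1 or WT IMQ 2 made this median 0.05 or 0.42. The smallest p among these was that of Itgb4, an integrin subunit of Schwann cells and epithelia, at 0.56 ± 0.20 (0.35 without WT IMQ 1).

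**Figure D3:**
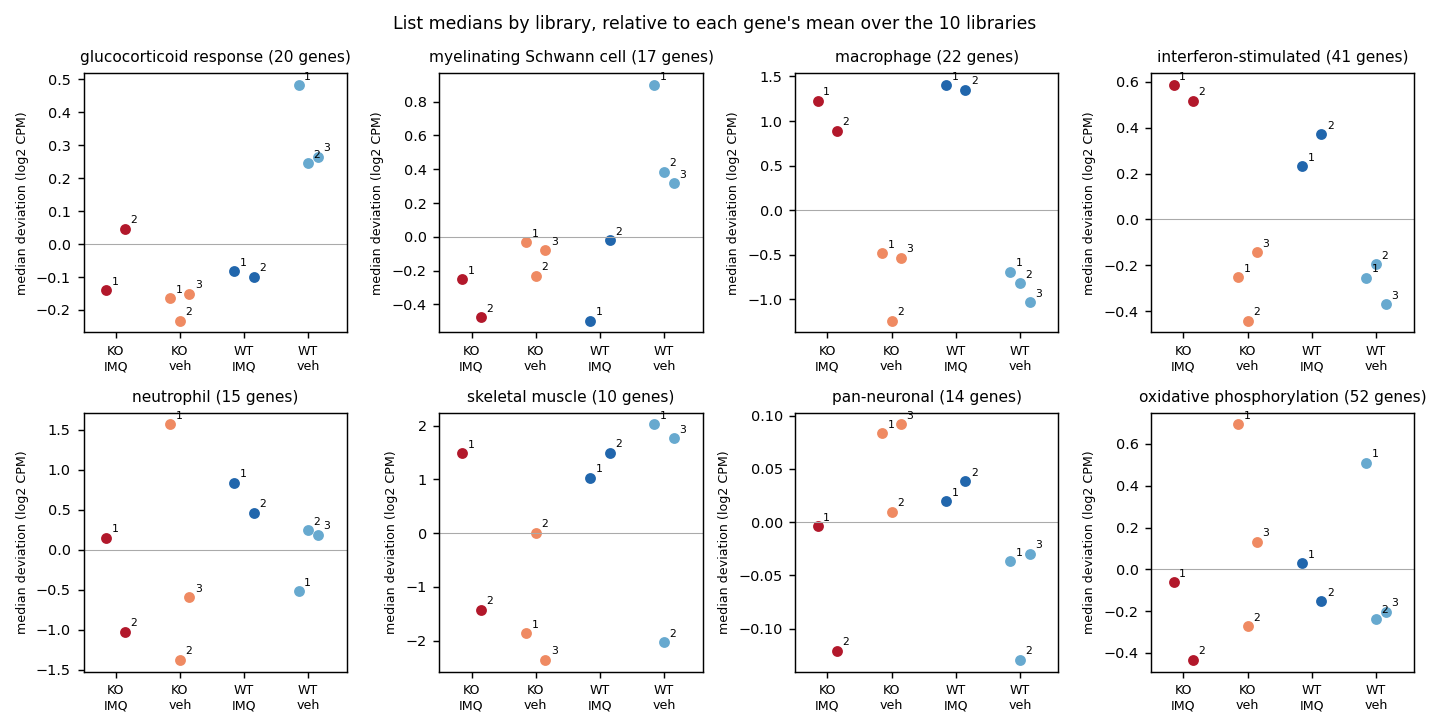
Median deviation of each list's genes from their own mean over the 10 libraries (log2 CPM), 1 point a library with its replicate number. WT vehicle is the highest group for the glucocorticoid and myelinating Schwann cell lists, the IMQ groups are highest for macrophage and interferon-stimulated genes, KO vehicle 1 stands high for neutrophil genes, and KO vehicle 1 and WT vehicle 1 for oxidative phosphorylation genes.

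**Figure D4:**
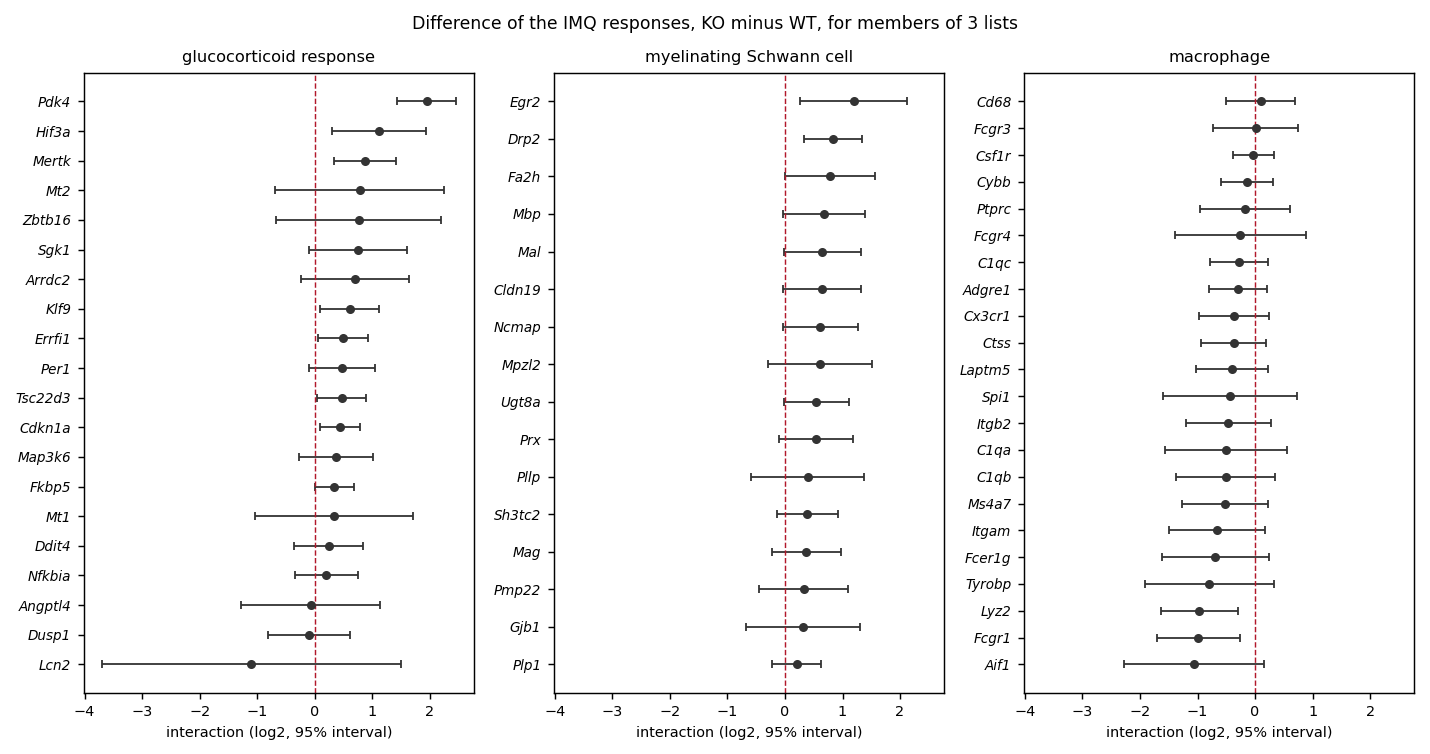
Interaction (log2) with its 95% interval for members of the glucocorticoid, myelinating Schwann cell and macrophage lists. Of the members plotted, 17 of 20, 16 of 16 and 2 of 22 lie above 0, and most intervals cross the dashed line at 0.

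Neuronal lists showed small interactions. Pan-neuronal genes had a median of -0.22 with 11 of 14 below 0 (-0.13 without KO vehicle 1 or KO IMQ 2). The medians were -0.05 for peptidergic nociceptor genes, 0.10 for non-peptidergic nociceptor and itch genes, and -0.0043 for mechanoreceptor and proprioceptor genes. None of the genes in these lists was called for IMQ in either genotype. Of all genes tested, 1.1% were called in KO and 1.3% in WT, so no call in lists this short says little about neurons. Trpv1, the capsaicin receptor of nociceptors, had an interaction of 0.29 ± 0.18 (0.15 without WT IMQ 2 and 0.46 without WT IMQ 1), and Pou4f1, a transcription factor of sensory neurons, one of -0.39 ± 0.15. Satellite glia genes had a median of 0.04. Apart from the pan-neuronal one, each of these medians changed sign under at least 1 alternative.

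Lists of other immune cells had negative medians apart from B and plasma cells, and each moved with single libraries. The T and NK cell median was -0.33 (-0.72 without KO vehicle 2 and -0.10 with the gene-length offset), and the dendritic cell median -0.45 (-0.03 without WT IMQ 2, 0.01 without KO vehicle 3 and 0.02 with the stricter filter on low counts). The mast cell median was -0.31 (-0.72 without KO IMQ 1 and -0.04 without KO IMQ 2). MHC class I genes had one of -0.33 with 15 of 16 below 0 (-0.50 without KO vehicle 2 and -0.15 without WT IMQ 2), and MHC class II genes -0.55 (-0.24 without WT IMQ 2). The B and plasma cell median was 0.70 (0.15 without KO IMQ 1, 1.06 without WT IMQ 2 and -0.22 with the stricter filter). Igkc, the constant region of the kappa light chain of antibodies, was at 24.9 and 17.1 CPM in KO IMQ against 8.44, 1.54 and 9.43 CPM in KO vehicle. With IMQ the WT libraries held 16.4 and 41.8 CPM, against 3.14, 2.04 and 2.15 CPM with vehicle. IMQ libraries lay above vehicle libraries in both genotypes, and the 2 WT IMQ libraries enclosed the KO IMQ values. Igkc rose in WT by 3.58 (edgeR adjusted p = 0.0265, lost with WT IMQ 2 or any WT vehicle library left out, 0.0635 to 0.262), its KO change was 1.72 (adjusted p = 0.439), and its interaction was -1.86 ± 0.88, or -1.03 without WT IMQ 2. Medians of the remaining lists were small or moved with single libraries, and none of their genes was called for the interaction. Endothelial genes had one of 0.05 (-0.07 if WT IMQ 1 was left out and 0.27 if WT IMQ 2 was), and that for pericyte and smooth muscle -0.02 (-0.29 without KO IMQ 1 and 0.31 with the stricter filter). Non-myelinating and repair Schwann cell genes had one of 0.20 (0.08 without KO IMQ 2), and adipocyte genes 0.30 (-0.35 without WT vehicle 2 and 0.70 without WT IMQ 2). The proliferation median was -0.15 (-0.25 without KO IMQ 1 and 0.30 without KO vehicle 1). Immediate early genes had 0.02 (0.22 without KO IMQ 1 and -0.10 without KO IMQ 2), and circadian clock genes 0.27 (0.41 without KO IMQ 1 and 0.17 without KO IMQ 2). Cholesterol and fatty acid synthesis genes had 0.04 (0.14 without KO IMQ 1 and -0.11 without KO IMQ 2), and hypoxia and glycolysis genes -0.11 (0.08 without KO IMQ 2).

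Medians for blood and muscle genes depended on single libraries. The neutrophil list had a median interaction of -1.30 over 15 genes, which was 0.0037 without KO vehicle 1 and -2.14 without KO IMQ 1. The erythroid list had one of -0.56, and 0.52 without KO vehicle 1 and -0.98 without KO vehicle 2. The skeletal muscle list had one of 1.86 over 10 genes, and -0.64 without KO IMQ 1 and 2.87 without KO vehicle 2. Muscle markers summed to 143 and 12.5 CPM in KO IMQ, 11.2, 43.3 and 8.69 CPM in KO vehicle, 83.1 and 108 CPM in WT IMQ, and 176, 9.54 and 136 CPM in WT vehicle. All 51 cytosolic ribosomal protein genes had a negative interaction, with a median of -0.38 that was -0.04 without KO vehicle 1, -0.73 without WT vehicle 1 and -0.16 with a gene-length offset. The 52 oxidative phosphorylation genes had a median of -0.34, which was -0.06 without KO vehicle 1 and -0.63 without WT vehicle 1. The median deviation of the ribosomal and oxidative phosphorylation lists was 0.74 and 0.69 in KO vehicle 1 and 0.61 and 0.51 in WT vehicle 1, above all other libraries.

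For genes called in 1 genotype only, the choice favours 1 sign of the interaction, so their values are a description. The 54 genes called higher in KO only had median changes of 1.22 in KO and 0.80 in WT, and the 60 called higher in WT only 0.97 in KO and 1.46 in WT. All 54 and all 60 had the same sign in both genotypes. The 29 called lower in WT only had medians of -0.19 in KO and -1.06 in WT, and 24 of them had an interaction at an unadjusted p under 0.05, against 10 of the 54 and 11 of the 60. The 1 gene called lower in KO only was Tcp11l1. It averaged 27.9 ± 5.0 CPM in KO IMQ (SD, n = 2) against 48.9 ± 2.5 CPM in KO vehicle (n = 3), and 35.5 ± 6.7 CPM in WT IMQ (n = 2) against 39.9 ± 1.9 CPM in WT vehicle (n = 3).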

How the data were processed

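RNA-seq of whole ganglia was analysed in 10 libraries, from a table of whole-number read counts per gene that the authors deposited without scaling. Poly-A RNA, dUTP strand marking and 150-base read pairs were used, per the labels' protocols. Tools named in the submitters' processing notes, with no role, are TopHat2, HISAT2 2.1.0 and Bowtie2 2.2.3, with the build GRCm39. How reads were counted, on which strand and with which annotation is not given in the sources used here.

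Tests covered the interaction, IMQ against vehicle in each genotype, and KO against WT under each treatment, in 1 fit with edgeR 4.0.16 (quasi-likelihood, robust, two-sided, TMM, filterByExpr), with Benjamini-Hochberg adjustment over all 17197 genes and calls at 0.05. Intervals are 95%. limma 3.58.1, DESeq2 1.42.0, other scalings and filters, a replicate block, a gene-length offset added after seeing the data, and leaving out each library were alternatives. Code was tested on simulated counts. The myelinating Schwann cell list holds 1 gene that is counted with the list and not reported here by itself. Symbols (55141 of 55487 IDs) and lengths came from GENCODE. No 2 libraries were identical, and replicates differed by more than counting error (chi-square per degree of freedom 3.57 to 77.1). R 4.3.3 and Python 3.11.15 were used.

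Named genes were Postn; the 10 positive and 10 negative interactions of smallest p with at least 1 CPM; the 4 members of each main list, and 1 of each other list, of smallest interaction p; the 5 smallest IMQ p per genotype; the 10 smallest interaction p among genes called in 1 genotype; and sex-linked genes. Others are said to be chosen after their values were seen, or illustrate a list. Members and the 36 lists were chosen with earlier results of these data known.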

Additional observations from a re-analysis of the deposited data

Results flagged for a closer look

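In 10 of the genes named for the interaction, both IMQ libraries lay to one side of all vehicle libraries in KO and to the other side in WT. The interaction was positive for Pdk4 (1.95), F3 (0.66), Cpeb1os1 (1.81) and Angpt2 (0.85), with IMQ above vehicle in KO and below it in WT. It was negative for Slc15a2 (-2.77), Xlr3b (-2.45), Fam222a (-1.05), Marveld3 (-1.20), Tlnrd1 (-0.61) and Adamts4 (-2.47), with IMQ below vehicle in KO and above it in WT. All values are log2. The difference was tested for each gene with edgeR, and the adjusted p was 0.155 for Pdk4 and 0.999 for the other 9. Among all 17197 genes tested, 62 (0.361%) separated in the first way and 63 (0.366%) in the second. These 10 genes were named for a small interaction p, which favours such a separation.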

How the results depend on the processing

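Interaction calls numbered 0, and 2 with no filter on low counts (Pdk4, Tmem267), 5 with DESeq2 and 1 with the gene-length offset (Pdk4, 2.01, edgeR adjusted p = 0.0292). Leaving out each library gave 0 to 1, the 1 being Xist without WT IMQ 1, where the lone WT IMQ library left has almost no Xist. Other scalings, the stricter filter, no robust estimation and limma-voom gave 0. IMQ calls in KO were 58 when only the KO libraries were fitted and 56 to 165 leaving out each library, lowest without KO IMQ 1. IMQ calls in WT were 358 with DESeq2 and 82 to 160 leaving out each library, lowest without WT IMQ 2. Calls of KO against WT were 2 (IMQ) and 22 (vehicle) with no filter, 4 and 30 with DESeq2, and 4 in vehicle with the length offset. Leaving out each library gave 0 to 1 and 0 to 2. Where a group keeps 1 library, it is assumed to vary like the others.

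Same-numbered libraries were not shown to be paired: 11 of 13 same-number correlations were above 0.1 (0.0503 to 0.872), and 9 of 10 libraries correlated best with their own number, a hint from the data and not the design. Each group's mean was removed before correlating, so the libraries of an IMQ group mirror each other. KO IMQ 1 and KO IMQ 2 had correlations of 0.754 and -0.754 with KO vehicle 1. These counts are therefore not of independent correlations. With a replicate block the interaction called 0 genes, with 755 at an unadjusted p under 0.05, and IMQ called 239 genes in KO and 280 in WT.

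Over 19 alternatives, leave-outs included, 3 of 83 named genes changed sign. Leaving out each library, Hbb-bt ran from -2.15 to 0.0236 (without KO vehicle 1), Myh4 from -0.367 (without KO IMQ 1) to 4.47, and Clec4a3 from -0.343 to 0.0213 (without KO IMQ 2), and Clec4a3 was 0.0998 with the length offset. The cause was not tested. Groups of 2 and 3 libraries limit what can be told apart: the median half-width of the 95% interval was 0.75 log2 among genes higher in both genotypes.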
